A study of Homo sapiens with 9 samples.

Results

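Translation initiation and elongation factors are the proteins that load ribosomes onto mRNA and move them along it, and their mRNAs were followed here through the compartments of migrating human mesenchymal stem cells. The members were chosen by name: every gene symbol in the deposited TPM data that starts with EIF or EEF, without the eIF2 kinase symbols and without pseudogenes. This gave 69 genes of the 37196 genes with at least 1 read in the series, 64 of them protein-coding and 5 of them noncoding RNAs named for a neighbouring factor. The genes of the 3 eIF4E-binding proteins were kept although their symbols end like those of pseudogenes. A filter on low counts left 65 members for testing, and EIF4E1B, EEF1A1-AS1, EIF1AX-AS1 and EIF2B5-DT fell below it. EEF1G was listed at 0 counts in all 9 libraries and did not enter, and GENCODE 29 places 99.9% of its exonic bases in another annotated gene as well.

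The study separated cells at a porous membrane. hTERT-MSC, 1 adipose-derived mesenchymal stem cell line immortalised with telomerase, was starved of serum overnight, left for 2 h on inserts with 3 µm pores and then drawn towards PDGF-BB, a growth factor that attracts these cells, at 50 ng/mL for 1 h. Pseudopodia (3 libraries) were the protrusions scraped from the lower face of the membrane, cell bodies (3 libraries) were what remained on the upper face, and whole cells (3 libraries) are the unseparated group, whose collection the labels do not describe on its own. All 9 libraries carry the PDGF-BB label, there was no group without PDGF-BB, and the labels do not say whether replicates were separate cultures, so every p-value measures the spread between libraries, which may be technical.

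Initiation begins when eIF2 brings the initiator tRNA to the small ribosomal subunit and eIF3 holds that subunit while the eIF4F complex, made of the cap-binding protein eIF4E, the scaffold eIF4G and the helicase eIF4A, recruits a capped mRNA. The eIF4E-binding proteins hold eIF4E back until mTOR complex 1 phosphorylates them, which growth factors such as PDGF promote, and elongation then runs on eEF1A, which delivers aminoacyl-tRNAs, and eEF2, which moves the ribosome by a codon. Many of these factors are themselves encoded by TOP mRNAs, whose 5′ end is a C followed by a run of pyrimidines and whose translation depends on mTOR complex 1, and some mRNAs, such as RAB13 and NET1, are known to collect in cell protrusions and to be translated there.

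The libraries held 55469030 to 83894938 counted reads. The mesenchymal markers THY1, NT5E, ENG, CD44 and PDGFRB were all above 0 and summed to 969 to 1061 TPM in pseudopodia, 2319 to 2789 TPM in cell bodies and 2016 to 2112 TPM in whole cells, whereas 4 blood markers summed to 60.4 TPM or less in every library. The highest blood marker, CD34 or CD14, had 21.3 to 33.6 TPM. The epithelial markers EPCAM and KRT8 summed to 62.5 to 87.1 TPM, almost all of it KRT8. The endothelial markers PECAM1 and CDH5 summed to 5.06 to 14.0 TPM. The known protrusion mRNAs RAB13, KIF1C, TRAK2 and NET1 summed to 3025 to 3226 TPM in pseudopodia, against 151 to 167 TPM in cell bodies and 196 to 207 TPM in whole cells, and the nuclear RNAs MEG3 and NEAT1 summed to 21.2 to 21.9 TPM, 44.0 to 55.2 TPM and 142 to 151 TPM in the same order of groups. The nuclear RNAs differed from each other: MEG3 averaged 2.34 TPM in pseudopodia and 27.9 TPM in cell bodies, whereas NEAT1 averaged 19.1 and 22.5 TPM. The log2 fold change between pseudopodia and cell body was -3.28 for MEG3 and 0.054 for NEAT1. Mitochondrially encoded mRNAs made up 6.02 ± 0.338% of counts in pseudopodia, 2.84 ± 0.228% in cell bodies and 4.67 ± 0.277% in whole cells (SD, n = 3 each). The part of these differences in the results below was not tested. Because the libraries are bulk RNA scaled to their own totals, less of an mRNA per cell cannot be told apart from fewer cells or a smaller share of cytoplasm in a fraction.

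Together the members took 2.79 ± 0.120% of counts in pseudopodia, 2.52 ± 0.107% in cell bodies and 2.09 ± 0.0309% in whole cells (SD, n = 3 each). In TPM, which divides by gene length and so allows levels of different genes to be set side by side, they summed to 16266 ± 720 TPM in pseudopodia, 16823 ± 562 TPM in cell bodies and 14469 ± 211 TPM in whole cells. The pseudopodia and cell body sums overlapped, and both lay above the whole cell sums in every library. EEF1A1 and EEF2 dominated these sums in all groups: EEF1A1 averaged 4753 ± 429 TPM in pseudopodia, 5083 ± 221 TPM in cell bodies and 4076 ± 41.3 TPM in whole cells, and EEF2 averaged 4911 ± 757 TPM, 5384 ± 369 TPM and 4912 ± 84.1 TPM in the same order. The pair made up 57.0% to 63.6% of the summed TPM in the 9 libraries. EIF1, a start codon selection factor, averaged 875 ± 94.1 TPM in pseudopodia, beside 865 ± 62.3 TPM for EIF4B, a difference within their spread. It came next after the elongation factors in cell bodies and whole cells, at 968 ± 85.8 TPM and 715 ± 29.3 TPM. At the other end EEF1A2, the muscle and neuron form of eEF1A, averaged under 1 TPM in every group, and EIF4E3 and EIF4EBP3 stayed below 4 TPM.

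The start sites of the members that carry the main results are shown because the pyrimidine run at the 5′ end marks the TOP mRNAs. The windows below hold 15 bases before and 15 bases from the RefSeq transcript start (GRCh38.p14), and capitals mark a C at the start base together with the unbroken run of C or T that follows, where that run has at least 4 bases after the C. They lie at chr6:73521018-73521047 (minus strand) for EEF1A1, chr19:3985449-3985478 (minus strand) for EEF2, chr12:53006441-53006470 (plus strand) for EIF4B, chr11:7987322-7987351 (plus strand) for EIF3F and chr3:186783562-186783591 (plus strand) for EIF4A2.
EEF1A1: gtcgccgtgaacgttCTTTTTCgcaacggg
EEF2: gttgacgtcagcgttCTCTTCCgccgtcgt
EIF4B: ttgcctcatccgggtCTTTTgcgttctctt
EIF3F: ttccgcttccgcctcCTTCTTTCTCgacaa
EIF4A2: gttgggcgccgctgtCTTTTCagtcgggcg
The next windows show 4 members that changed between pseudopodia and cell body and have no such run at the start listed, EIF4ENIF1 at chr22:31489828-31489857 (minus strand), EIF5B at chr2:99337374-99337403 (plus strand), EIF2S1 at chr14:67360313-67360342 (plus strand) and EIF4G1 at chr3:184314591-184314620 (plus strand), the first of its 3 listed starts.
EIF4ENIF1: ggagggccgggctgcagttacggcggctga
EIF5B: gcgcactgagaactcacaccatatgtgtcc
EIF2S1: gcgaggaggttccgcatgcgcggtggagtg
EIF4G1: tctgtgcggggagccggaaatggttgtgga
Of the 69 members 55 had a start in the RefSeq table, and 13 of these (23.6%) had the run at 1 or more of their starts on the transcribed strand, against 5.14% of all 27305 genes in the table. The 13 were EEF1A1, EEF1B2, EEF2, EIF2A, EIF2D, EIF2S3, EIF2S3B, EIF3D, EIF3F, EIF3K, EIF3M, EIF4A2 and EIF4B. A match describes the letters at an annotated start and is no measurement of the 5′ ends in these cells.

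Between pseudopodia and cell body the eIF4F scaffold EIF4G1, the helicase cofactor EIF4B and the eIF4E transporter EIF4ENIF1 were richer in pseudopodia, with log2 fold changes of 1.44 to 2.00, while most members, among them EEF1A1, EEF2 and EIF4E, were not called. A gene was called when its adjusted p, by edgeR's quasi-likelihood test with Benjamini-Hochberg adjustment over 19426 genes, was under 0.05. Of the 65 members 11 were called higher, where 18.6% of all genes were, and 7 were called lower, where 19.9% were. In all 27.7% of the members were called, below the 38.5% of all genes, and the median log2 fold change was 0.06 for the members and -0.05 for all genes. The 11 higher members had log2 fold changes of 0.36 to 2.20. The count of lower members moved to 11 without pseudopodia replicate 3 and to 4 without cell body replicate 3. On the TPM scale, with limma on log2(TPM + 1), 7 members were higher and 18 were lower. TPM scaling also moved the median of all genes, to -0.17 between pseudopodia and cell body, -0.34 between pseudopodia and whole cell and -0.15 between cell body and whole cell, so log2 fold changes near 0 depend on the scaling.

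**Figure D1:**
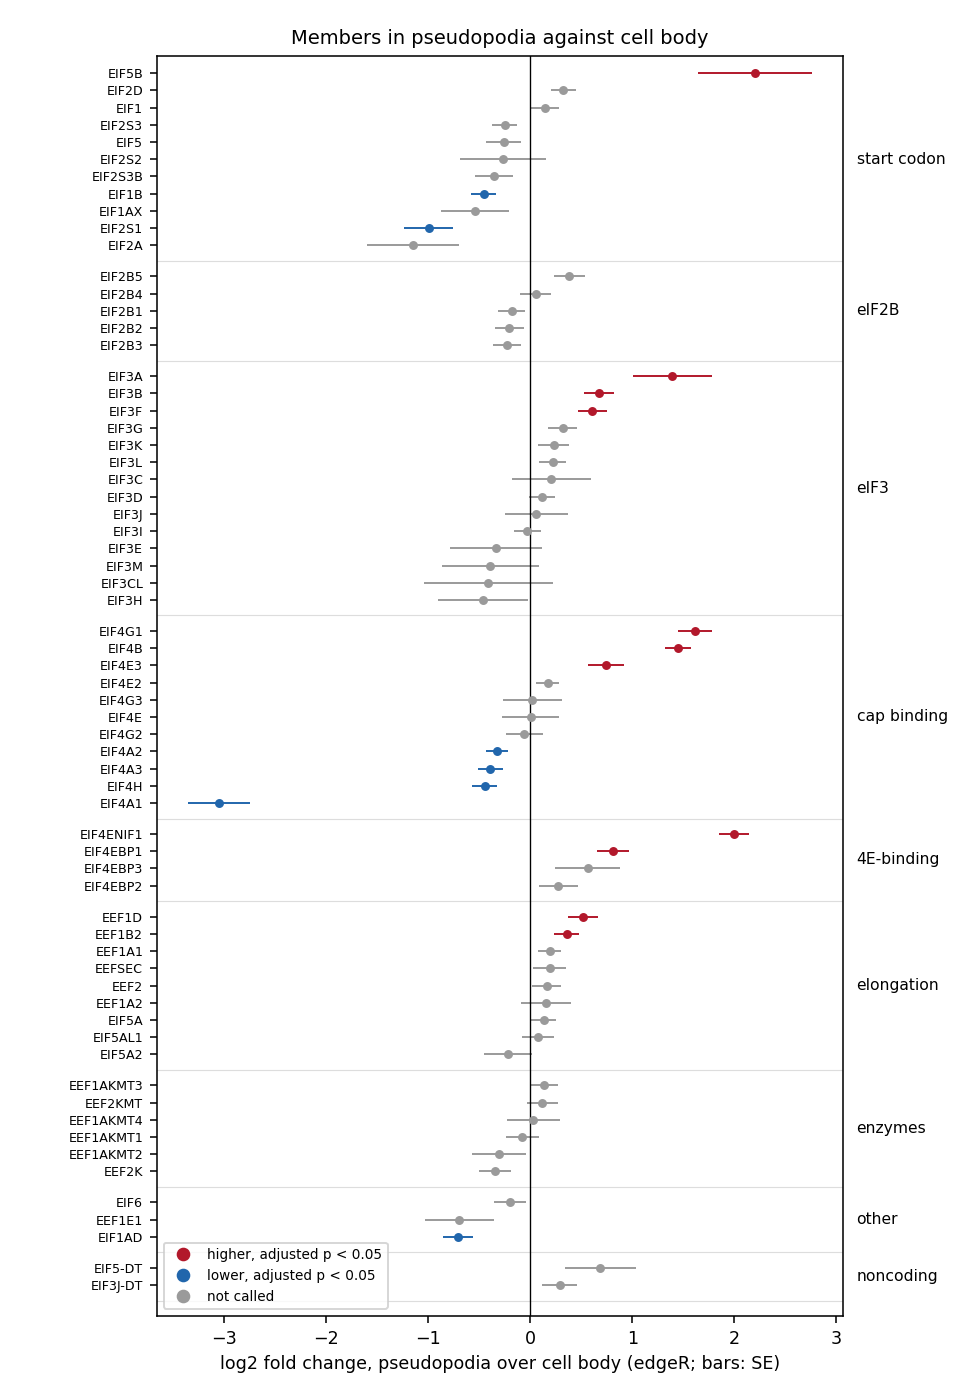
Log2 fold change of each of the 65 tested members, pseudopodia over cell body, on the horizontal axis, with bars for the standard error and members grouped by role. EIF5B, EIF4ENIF1, EIF4G1 and EIF4B stand farthest to the right, EIF4A1 farthest to the left, and the 5 eIF2B subunits sit within 0.38 of 0.

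Between pseudopodia and whole cell 36 of the 65 members were called higher in pseudopodia, where 27.9% of all genes were, and 6 were called lower, where 33.1% were. The share called in either direction was 64.6%, beside 61% of all genes. The median log2 fold change was 0.50 for the members and -0.12 for all genes. EIF4ENIF1, EIF4G1, EIF4B and EIF3B led the higher members that are well counted, and EIF2A, EIF2S2 and EIF4G3 were among the lower ones. On the TPM scale 17 members were higher and 14 were lower.

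Between cell body and whole cell 30 of the 65 members were called higher in cell bodies, where 18.1% of all genes were, and 4 were called lower, where 20.5% were, while 31 were not called. The higher count was 20 without whole cell replicate 1. The share called was 52.3%, beside 38.6% of all genes, and the median log2 fold change was 0.40 for the members and -0.06 for all genes. EIF5, EIF4E and EIF6 had the highest values above a few CPM, and EIF4G3 and EEF2K were among the 4 lower members. The 4 became 7 without pseudopodia replicate 2, whose spread enters the fit, 1 without cell body replicate 3 and 2 without any 1 of the whole cell replicates. On the TPM scale 21 members were higher and 9 were lower. The comparisons with whole cells share their 3 whole cell libraries.

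**Figure D2:**
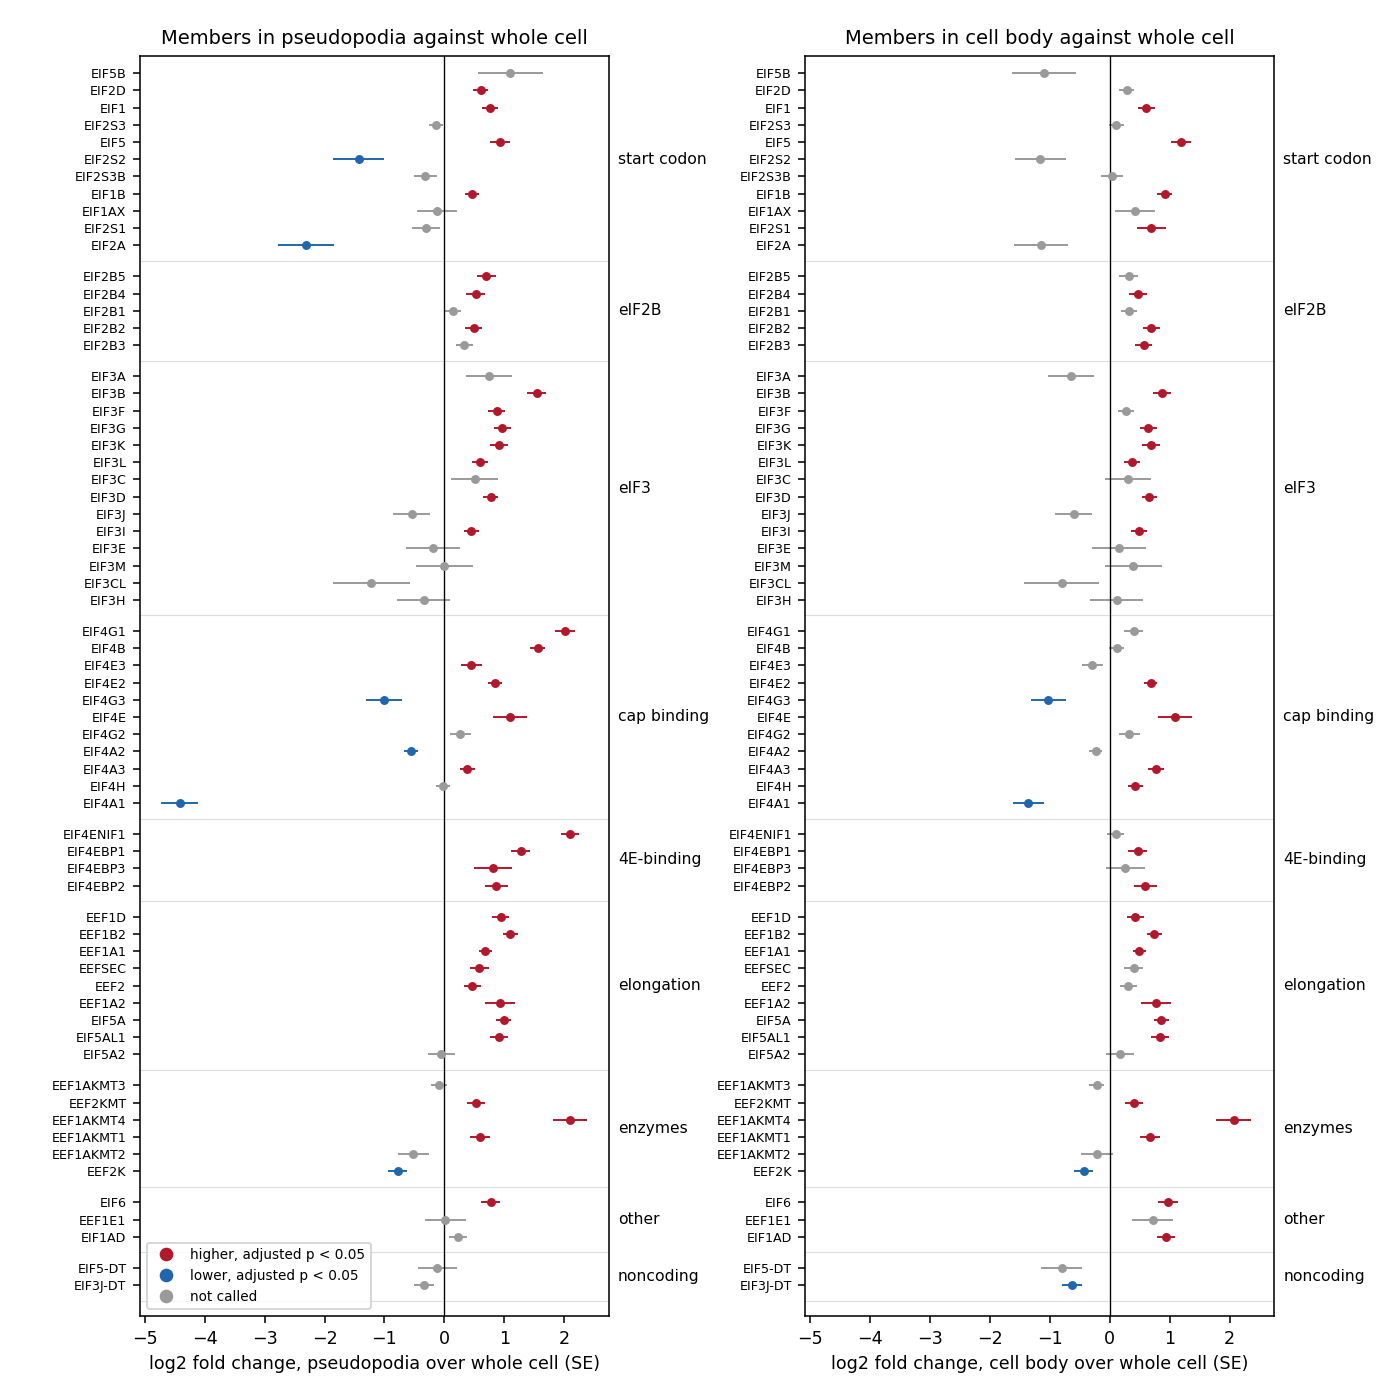
Log2 fold change of the 65 tested members over whole cell, for pseudopodia on the left and cell body on the right, with bars for the standard error and the members in 1 common order. Elongation factors lie to the right of 0 in both panels by this edgeR fit, except EIF5A2 in pseudopodia, at -0.05.

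The scaffold of the cap-binding complex was higher in pseudopodia than in both other groups. In CPM, read counts relative to library size with TMM factors, EIF4G1, the large scaffold that joins eIF4E, eIF4A and eIF3, had 1578, 1535 and 2177 CPM in pseudopodia, 476, 654 and 603 CPM in cell bodies and 443, 428 and 444 CPM in whole cells. All 3 pseudopodia libraries lay above all others. The log2 fold change was 1.61 ± 0.17, adjusted p = 2.23e-05 between pseudopodia and cell body and 2.01 ± 0.17, adjusted p = 2.91e-06 between pseudopodia and whole cell, both by edgeR's quasi-likelihood test. Between cell body and whole cell it was 0.40 ± 0.16 (adjusted p = 0.0746). That difference passed the threshold in 7 of 22 alternative settings, among them without cell body replicate 1 (0.53, adjusted p = 0.034). Its paralogue EIF4G3 went another way, with 40.7, 76.1 and 35.0 CPM in pseudopodia, 50.2, 63.2 and 36.3 CPM in cell bodies and 105, 98.0 and 102 CPM in whole cells. Every whole cell library was above every fraction library, and the fractions overlapped. EIF4G3 fell by 1.01 ± 0.29 in pseudopodia (adjusted p = 0.014) and by 1.03 ± 0.29 in cell bodies (adjusted p = 0.0213) relative to whole cells on the log2 scale. Pseudopodia against cell body gave 0.021 ± 0.29, adjusted p = 0.963. Both calls were lost with no filter on low counts. The first was also lost without pseudopodia replicate 1 or 3. The second was also lost without cell body replicate 1 or 3 or whole cell replicate 1 or 3. These single-library losses had adjusted p of 0.0523 to 0.0684. In TPM the ratio of EIF4G1 to EIF4G3 was 52.7, 27.4 and 84.6 in pseudopodia, 12.9, 14.1 and 22.6 in cell bodies and 5.70, 5.93 and 5.93 in whole cells, so the 3 groups did not overlap.

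EIF4B, an RNA-binding cofactor that stimulates the eIF4A helicase, had 1478, 1403 and 1738 CPM in pseudopodia, 506, 583 and 609.5 CPM in cell bodies and 517, 524 and 528 CPM in whole cells. Pseudopodia were above the others in every library, and cell bodies and whole cells overlapped. Its log2 fold change was 1.44 ± 0.13, adjusted p = 6.95e-06 between pseudopodia and cell body and 1.56 ± 0.13, adjusted p = 2.41e-06 between pseudopodia and whole cell (edgeR's quasi-likelihood test). Cell body against whole cell gave 0.11 ± 0.12, adjusted p = 0.495. EIF4H, a smaller relative of EIF4B that also stimulates eIF4A, had 288, 257 and 230.0 CPM in pseudopodia, 327, 359 and 371 CPM in cell bodies and 257, 271 and 257 CPM in whole cells. Cell bodies were highest in each library, and pseudopodia and whole cells overlapped. EIF4H was lower in pseudopodia than in cell bodies (-0.45 ± 0.12, adjusted p = 0.0126) and higher in cell bodies than in whole cells (0.43 ± 0.12, adjusted p = 0.0168). Without cell body replicate 3 the first of these gave -0.40, adjusted p = 0.0589 and the second 0.42, adjusted p = 0.0517. The second was also lost without whole cell replicate 1 or 3, with the correction for GC content and length (0.16, adjusted p = 0.356) and on log2(TPM + 1) (0.25, adjusted p = 0.0979). Pseudopodia against whole cell gave -0.02 ± 0.12, adjusted p = 0.896, and -0.48, adjusted p = 0.00376 on log2(TPM + 1). The TPM ratio of EIF4B to EIF4H was 4.94, 5.27 and 7.28 in pseudopodia, 1.49, 1.57 and 1.58 in cell bodies and 1.93, 1.86 and 1.98 in whole cells.

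None of the 3 helicase genes EIF4A1, EIF4A2 and EIF4A3 was called higher in pseudopodia than in cell bodies. EIF4A2 had 192, 179 and 178 CPM in pseudopodia, 246, 214 and 226 CPM in cell bodies and 266, 279 and 263 CPM in whole cells, and the 3 pseudopodia values lay below all 6 others. It gave -0.56 ± 0.11, adjusted p = 0.0011 between pseudopodia and whole cell and -0.33 ± 0.11, adjusted p = 0.0354 between pseudopodia and cell body (edgeR's quasi-likelihood test). The second was lost in 13 of 22 alternatives, among them without any 1 library other than pseudopodia replicate 3 and cell body replicate 2, and with a correction for GC content and length the values were 0.28, adjusted p = 0.211 and 0.048, adjusted p = 0.863. EIF4A1, usually the main form in growing cells, was counted at 0.520, 0.190 and 0.463 CPM in pseudopodia, 3.80, 2.85 and 3.02 CPM in cell bodies and 8.59, 7.89 and 8.38 CPM in whole cells, and it fell by 3.06 ± 0.30 on the log2 scale in pseudopodia relative to cell bodies (adjusted p = 1.58e-05). These are only 14 to 36 reads a library in pseudopodia, and 48.6% of its exonic bases in GENCODE 29 are shared with another annotated gene, so its level and its direction are uncertain. EIF4A3, the helicase of the exon junction complex, had 47.8, 46.7 and 59.2 CPM in pseudopodia, 69.6, 67.4 and 64.6 CPM in cell bodies and 38.8, 41.1 and 38.3 CPM in whole cells. Pseudopodia lay between the other groups, below all cell bodies and above all whole cells, with -0.39 ± 0.13, adjusted p = 0.0293 against cell bodies, 0.38 ± 0.13, adjusted p = 0.022 against whole cells and 0.77 ± 0.13, adjusted p = 0.000961 for cell bodies against whole cells. The first was lost without any 1 of 8 libraries (all but pseudopodia replicate 3) and the second without whole cell replicate 1 or 3, and on log2(TPM + 1) the second was -0.086, adjusted p = 0.448.

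Of the 3 cap-binding proteins EIF4E, EIF4E2 and EIF4E3, EIF4E3 was called higher in pseudopodia than in cell bodies, and all 3 were called higher in pseudopodia than in whole cells. Of all genes 18.6% and 27.9% were called higher in these comparisons. EIF4E, which binds the cap and is the usual limiting partner of eIF4F, had 32.9, 44.2 and 17.0 CPM in pseudopodia, 30.1, 28.4 and 35.4 CPM in cell bodies and 15.3, 14.9 and 13.9 CPM in whole cells. Pseudopodia spanned the cell body values on both sides, from the highest library, replicate 2, to the lowest, replicate 3. Its log2 fold change was 0.0035 ± 0.28, adjusted p = 0.993 between pseudopodia and cell body, 1.09 ± 0.28, adjusted p = 0.00706 between pseudopodia and whole cell and 1.09 ± 0.28, adjusted p = 0.0129 between cell body and whole cell (edgeR's quasi-likelihood test). On log2(TPM + 1) pseudopodia against whole cell gave 0.50, adjusted p = 0.164. EIF4E3, a rarer member of the cap-binding family, had 4.49, 3.95 and 3.20 CPM in pseudopodia, 2.09, 2.54 and 2.34 CPM in cell bodies and 2.93, 2.70 and 2.91 CPM in whole cells. It was higher in pseudopodia than in cell bodies in every library (0.74 ± 0.18, adjusted p = 0.00699) at a level of few reads, and on log2(TPM + 1) this gave 0.23, adjusted p = 0.114. Its call against whole cells (0.45 ± 0.18, adjusted p = 0.0457) was lost in 12 of 21 alternatives, among them without pseudopodia replicate 1 or 2, cell body replicate 2 or any 1 whole cell replicate, and on log2(TPM + 1) it was -0.0093, adjusted p = 0.946. EIF4E2, a cap-binding protein that represses translation with GIGYF2, was not called between pseudopodia and cell body (0.17 ± 0.11, adjusted p = 0.273) and was higher than in whole cells both in pseudopodia (0.85 ± 0.12, adjusted p = 8.83e-05) and in cell bodies (0.68 ± 0.12, adjusted p = 0.00115). EIF4G2, a scaffold without an eIF4E site, was not called in any of the 3 comparisons (-0.059 ± 0.18, 0.27 ± 0.18 and 0.32 ± 0.18).

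Of the 4 genes of eIF4E-binding proteins 2, EIF4ENIF1 and EIF4EBP1, were called higher in pseudopodia than in cell bodies, and all 4 were called higher in pseudopodia than in whole cells, where 18.6% and 27.9% of all genes were. EIF4ENIF1, which carries eIF4E into the nucleus and represses bound mRNAs in processing bodies, had 72.5, 72.4 and 94.1 CPM in pseudopodia, 17.9, 20.7 and 21.2 CPM in cell bodies and 17.5, 18.8 and 19.5 CPM in whole cells. Pseudopodia were far above the rest in every library, and cell bodies overlapped with whole cells. The log2 fold change was 2.00 ± 0.15, adjusted p = 1.93e-06 between pseudopodia and cell body and 2.10 ± 0.15, adjusted p = 8.32e-07 between pseudopodia and whole cell, by edgeR's quasi-likelihood test. Cell body against whole cell gave 0.10 ± 0.14, adjusted p = 0.602. EIF4EBP1, the best known mTOR-controlled repressor of eIF4E, had 38.3, 37.6 and 53.7 CPM in pseudopodia, 26.9, 24.0 and 22.9 CPM in cell bodies and 17.1, 19.1 and 17.3 CPM in whole cells. The 3 groups did not overlap, with log2 fold changes of 0.81 ± 0.16, adjusted p = 0.00192 between pseudopodia and cell body, 1.28 ± 0.16, adjusted p = 4.79e-05 between pseudopodia and whole cell and 0.46 ± 0.16, adjusted p = 0.0378 between cell body and whole cell. The last of these was lost in 12 of 22 alternatives, including without any 1 cell body or whole cell library. Both pseudopodia calls of EIF4EBP1 were kept in all 22, but their size depended on the setting. The lowest values were 0.34 against cell bodies and 0.53 against whole cells. EIF4EBP2, its close relative, had 158, 144 and 225 CPM in pseudopodia, 111, 161 and 164 CPM in cell bodies and 101, 92.5 and 95.8 CPM in whole cells. Cell body replicates 2 and 3 reached the lower pseudopodia libraries, and all whole cell values were lower than all others. It gave 0.27 ± 0.19, adjusted p = 0.289 between pseudopodia and cell body, 0.87 ± 0.19, adjusted p = 0.00243 between pseudopodia and whole cell and 0.59 ± 0.19, adjusted p = 0.0302 between cell body and whole cell, the last being lost without cell body replicate 2 or 3 or any 1 whole cell replicate. On log2(TPM + 1) neither EIF4EBP2 call remained (0.37, adjusted p = 0.0932 and 0.39, adjusted p = 0.106). EIF4EBP3, under 1 CPM, shares 73.4% of its exonic bases with the read-through gene ANKHD1-EIF4EBP3 and is uncertain. In TPM the ratio of EIF4EBP1 to EIF4E was 6.58, 4.81 and 17.8 in pseudopodia, 5.05, 4.78 and 3.65 in cell bodies and 6.32, 7.25 and 7.03 in whole cells, and the high value of pseudopodia replicate 3 goes with its low EIF4E.

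**Figure D3:**
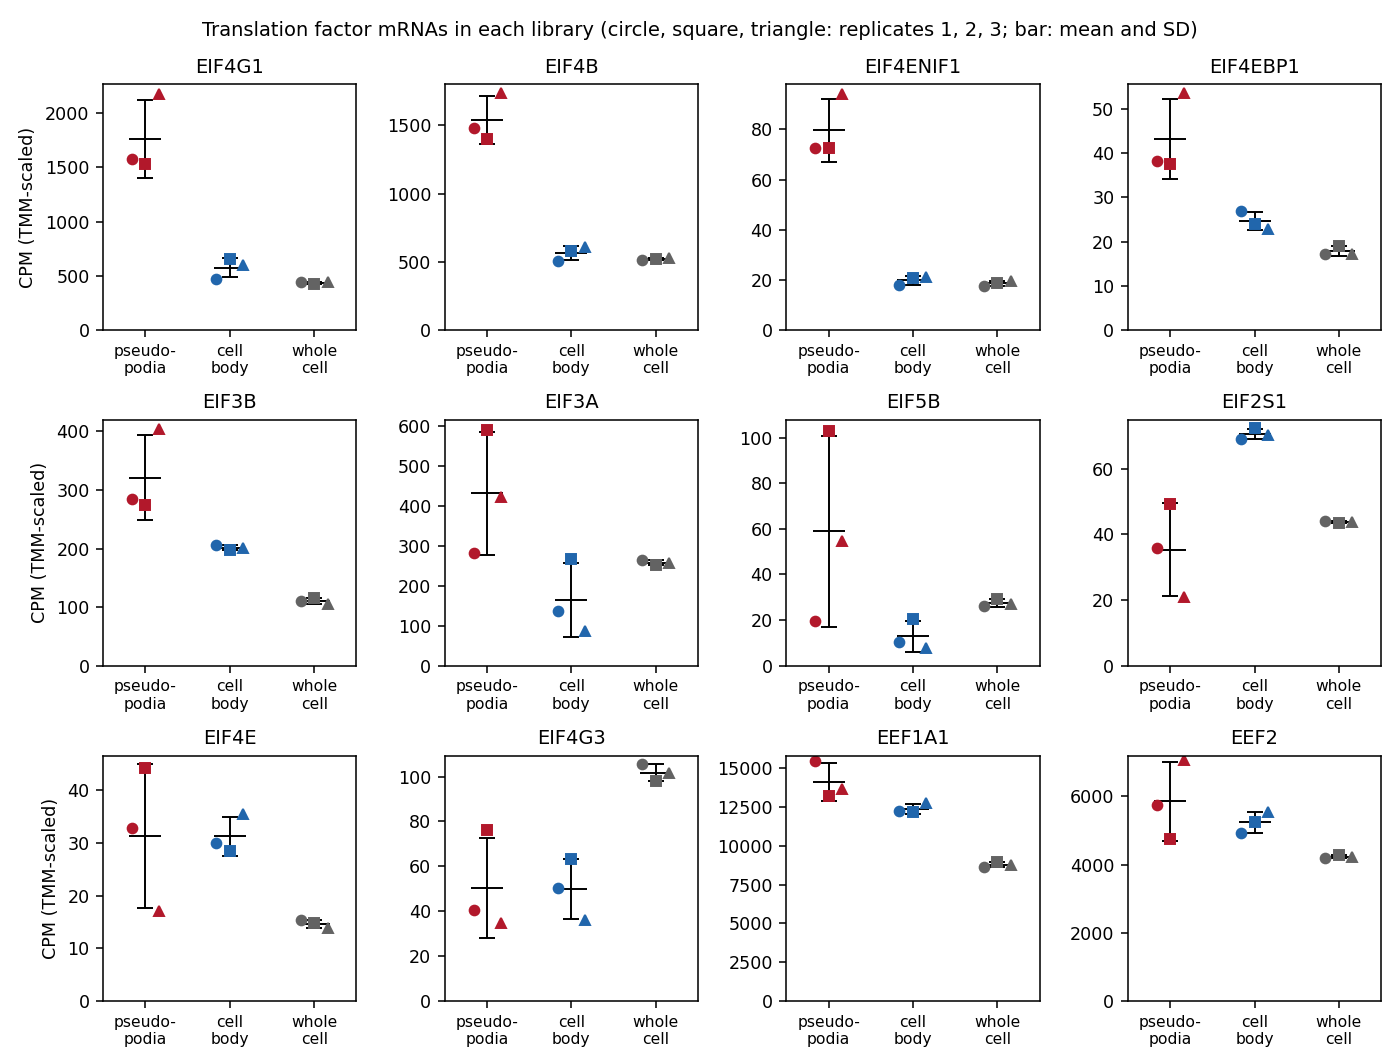
CPM (TMM-scaled) of 12 members in each library, with the 3 replicates as separate symbols and a bar for the mean and SD; every vertical axis starts at 0. EIF4G1, EIF4B and EIF4ENIF1 are higher in each pseudopodia library than in any other, whereas EIF5B, EIF2S1 and EIF4E spread widely within pseudopodia.

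Of the 14 eIF3 genes 3 were called higher in pseudopodia than in cell bodies, EIF3A, EIF3B and EIF3F, and none was called lower. The share higher, 21.4%, was near the 18.6% of all genes, of which another 19.9% were lower. EIF3B, a core scaffold subunit, had 285, 274 and 404 CPM in pseudopodia, 206, 197 and 201 CPM in cell bodies and 111, 115 and 106 CPM in whole cells. The 3 groups did not overlap. The log2 fold changes were 0.67 ± 0.15, adjusted p = 0.00447 between pseudopodia and cell body, 1.54 ± 0.15, adjusted p = 9.42e-06 between pseudopodia and whole cell and 0.87 ± 0.15, adjusted p = 0.00139 between cell body and whole cell (edgeR's quasi-likelihood test). EIF3A, the largest subunit, had 283, 589 and 421 CPM in pseudopodia, 137, 268 and 88.1 CPM in cell bodies and 264, 252 and 258 CPM in whole cells. All pseudopodia values were above all cell body values, but by little for the closest pair, and whole cells lay within the range spanned by the fractions. Its log2 fold change between pseudopodia and cell body was 1.39 ± 0.39, adjusted p = 0.0192, and the call was lost when pseudopodia replicate 3 (1.41, adjusted p = 0.0757) or cell body replicate 1 (1.31, adjusted p = 0.0628) was left out. It was also lost with no filter on low counts (1.41, adjusted p = 0.0788), with limma-voom (0.97, adjusted p = 0.0756) and with the 6 libraries compared alone (1.35, adjusted p = 0.0585). Against whole cells pseudopodia gave EIF3A a log2 fold change of 0.74 ± 0.38, adjusted p = 0.122. EIF3F gave 0.61 ± 0.14, adjusted p = 0.00543 between pseudopodia and cell body. Against whole cells 7 of the 14 were higher in pseudopodia and 6 were higher in cell bodies, where 27.9% and 18.1% of all genes were, led in pseudopodia by EIF3B, EIF3G (0.96 ± 0.14) and EIF3K (0.92 ± 0.15). EIF3E, EIF3H and EIF3M were not called in any comparison and were low in pseudopodia replicate 3: EIF3M had 115, 123 and 23.3 CPM in pseudopodia, against 135, 96.5 and 111 CPM in cell bodies. EIF3C and its near-identical copy EIF3CL varied between whole cell replicates, EIF3C having 20.5, 26.5 and 59.1 CPM and EIF3CL 55.8, 10.2 and 9.36 CPM there. How the counting split reads between the copies was not tested, and both values are uncertain.

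Among the 11 genes of start codon recognition and initiator tRNA delivery, 1 was higher and 2 were lower in pseudopodia than in cell bodies, 27.3% called in all, below the 38.5% of all genes. EIF5B, the GTPase that joins the ribosomal subunits, had 19.5, 103 and 54.7 CPM in pseudopodia, 10.5, 20.4 and 7.59 CPM in cell bodies and 26.0, 29.1 and 27.3 CPM in whole cells. Pseudopodia spread widely, and their lowest library was below the highest cell body library. The log2 fold change was 2.20 ± 0.56, adjusted p = 0.0121 between pseudopodia and cell body (edgeR's quasi-likelihood test), and without pseudopodia replicate 3 it was 2.26, adjusted p = 0.0529. The call was also lost with no filter on low counts (2.23, adjusted p = 0.0606) and with limma-voom (0.86, adjusted p = 0.206). EIF2S1, the alpha subunit of eIF2 and the site of stress-induced phosphorylation, had 35.8, 49.3 and 21.0 CPM in pseudopodia, 69.2, 72.3 and 70.4 CPM in cell bodies and 44.1, 43.5 and 43.7 CPM in whole cells. All pseudopodia libraries were below all cell body libraries, and whole cells lay within the pseudopodia range. It fell by 1.00 ± 0.24 on the log2 scale in pseudopodia relative to cell bodies (adjusted p = 0.00803), a call kept in all 22 alternatives. It was higher in cell bodies than in whole cells (0.69 ± 0.24, adjusted p = 0.0436), a call lost in 12 of 22 alternatives, including without pseudopodia replicate 1 or any 1 library of either group. Pseudopodia against whole cell gave -0.31 ± 0.24, adjusted p = 0.287, and here the direction depended on the setting. It was -0.82, adjusted p = 0.0194 on log2(TPM + 1), -0.28, adjusted p = 0.0047 with limma-voom and -0.62, adjusted p = 0.016 without pseudopodia replicate 2, but 0.42, adjusted p = 0.00337 with the correction for GC content and length. EIF1B, a paralogue of the start codon selection factor EIF1, had 38.4, 36.3 and 32.3 CPM in pseudopodia, 50.9, 49.5 and 46.7 CPM in cell bodies and 24.3, 27.5 and 26.1 CPM in whole cells. Its groups did not overlap, pseudopodia lying between the others, with -0.46 ± 0.12, adjusted p = 0.0113 against cell bodies, 0.46 ± 0.12, adjusted p = 0.00674 against whole cells and 0.92 ± 0.12, adjusted p = 0.000253 for cell bodies against whole cells. On log2(TPM + 1) the difference from whole cells was -0.0041, adjusted p = 0.975.

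Of the other two eIF2 subunits EIF2S2 was called lower in pseudopodia than in whole cells, and EIF2S3 was not called. EIF2S2, the beta subunit, had 34.4, 61.9 and 22.3 CPM in pseudopodia, 64.3, 56.1 and 22.7 CPM in cell bodies and 104, 113 and 102 CPM in whole cells. Whole cells were above both fractions in every library. The log2 fold change was -1.43 ± 0.43, adjusted p = 0.0164 between pseudopodia and whole cell. This call was lost with no filter on low counts (-1.33, adjusted p = 0.0937), without pseudopodia replicate 1 (-1.33, adjusted p = 0.0534) and without pseudopodia replicate 3 (-1.13, adjusted p = 0.0872). Cell body against whole cell gave -1.16 ± 0.42, adjusted p = 0.0567. That difference passed in 10 of 22 alternatives, among them DESeq2 (-1.12, adjusted p = 0.0131), limma-voom (-1.46, adjusted p = 0.00709) and the replicate block (-1.30, adjusted p = 0.0153). EIF2S3, the gamma subunit, was not called in any comparison, and its expressed copy EIF2S3B may share its reads. EIF2A, a single-chain protein that can deliver initiator tRNA without eIF2, had 6.93, 23.6 and 6.37 CPM in pseudopodia, 34.8, 24.6 and 22.7 CPM in cell bodies and 60.5, 63.4 and 58.7 CPM in whole cells. Both fractions were below whole cells in every library, and pseudopodia replicate 2 reached the cell body values. The log2 fold change of EIF2A was -2.30 ± 0.47, adjusted p = 0.00227 between pseudopodia and whole cell and -1.15 ± 0.45, adjusted p = 0.0751 between pseudopodia and cell body, where leaving out pseudopodia replicate 2 gave -2.04, adjusted p = 1.89e-05 (edgeR's quasi-likelihood test). The second passed in 6 of 22 alternatives, and cell body against whole cell (-1.15 ± 0.45, adjusted p = 0.0714) passed in 8 of 22, among them without pseudopodia replicate 2 (-1.15, adjusted p = 0.000305). EIF5, which makes eIF2 hydrolyse its GTP, had 183, 234 and 137 CPM in pseudopodia, 225, 232 and 208 CPM in cell bodies and 95.9, 97.4 and 98.6 CPM in whole cells. Both fractions were above whole cells in every library, with 0.93 ± 0.17, adjusted p = 0.000726 for pseudopodia and 1.19 ± 0.17, adjusted p = 0.000434 for cell bodies against whole cells. Pseudopodia overlapped with cell bodies (-0.26 ± 0.17, adjusted p = 0.248). On log2(TPM + 1) the EIF5 call against whole cells was lost in pseudopodia (0.42, adjusted p = 0.0672). There pseudopodia were below cell bodies (-0.57, adjusted p = 0.0325), as they were without pseudopodia replicate 2 (-0.47, adjusted p = 0.0203).

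The 5 subunits of eIF2B, which recharges eIF2 with GTP and is the target of eIF2 phosphorylation, were not called between pseudopodia and cell body, their log2 fold changes lying between -0.23 and 0.38. Against whole cells 3 of the 5 were higher in pseudopodia (EIF2B2, EIF2B4 and EIF2B5) and 3 in cell bodies (EIF2B2, EIF2B3 and EIF2B4), and none was called lower. In each comparison 60% were thus called higher, where 27.9% and 18.1% of all genes were. In either direction 61% and 38.6% of all genes were called. The log2 fold changes were 0.70 ± 0.16 for EIF2B5 in pseudopodia and 0.69 ± 0.14 for EIF2B2 in cell bodies. EIF1AD, an eIF1A-like protein found by its symbol, had 14.1, 13.2 and 18.2 CPM in pseudopodia, 22.3, 26.5 and 25.4 CPM in cell bodies and 12.8, 13.2 and 12.7 CPM in whole cells. Cell bodies were above the rest in every library, with -0.71 ± 0.15, adjusted p = 0.0033 for pseudopodia against cell bodies and 0.94 ± 0.15, adjusted p = 0.000866 for cell bodies against whole cells (edgeR's quasi-likelihood test). EIF6, which keeps the large ribosomal subunit from joining too early, had 38.3, 34.6 and 52.2 CPM in pseudopodia, 52.7, 45.3 and 45.6 CPM in cell bodies and 23.1, 25.6 and 24.5 CPM in whole cells. Whole cells were lowest in every library, and pseudopodia and cell bodies overlapped. The log2 fold change was 0.77 ± 0.16, adjusted p = 0.00158 between pseudopodia and whole cell and 0.97 ± 0.16, adjusted p = 0.001 between cell body and whole cell. On log2(TPM + 1) the pseudopodia call was lost (0.29, adjusted p = 0.0724). Pseudopodia against cell body gave -0.20 ± 0.16, adjusted p = 0.353, a difference that passed in 6 of 22 alternatives, among them on log2(TPM + 1) (-0.50, adjusted p = 0.0119), with the correction for GC content and length (-0.45, adjusted p = 0.000632) and without pseudopodia replicate 3 (-0.39, adjusted p = 0.011).

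Most elongation factors were called higher in both fractions than in whole cells, and few were called between the fractions. Of 9 members 8 were called higher in pseudopodia than in whole cells, 6 were called higher in cell bodies than in whole cells, and 2, EEF1B2 and EEF1D, were called higher in pseudopodia than in cell bodies. Of all genes 27.9%, 18.1% and 18.6% were called higher in these 3 comparisons, and the 22.2% of elongation factors called between the fractions is near the last of these. EEF1A1 had 15446, 13176 and 13657 CPM in pseudopodia, 12207, 12132 and 12749 CPM in cell bodies and 8619, 8944 and 8782 CPM in whole cells. Each fraction library was above each whole cell library, and in CPM the lowest pseudopodia library was above the highest cell body library. In TPM the fractions overlapped, with 5232, 4622 and 4406 TPM in pseudopodia and 5008, 4910 and 5332 TPM in cell bodies. EEF1A1 gave 0.68 ± 0.11, adjusted p = 0.000295 between pseudopodia and whole cell, 0.49 ± 0.11, adjusted p = 0.00528 between cell body and whole cell and 0.19 ± 0.11, adjusted p = 0.2 between pseudopodia and cell body (edgeR's quasi-likelihood test). Pseudogenes of all members together took reads equal to 4.09% to 5.15% of the members' counts. Their part was larger in TPM, where they summed to 2913 to 4241 TPM, beside 14245 to 17473 TPM for the members. EEF2 had 5743, 4757 and 7046 CPM in pseudopodia, 4932, 5233 and 5529.6 CPM in cell bodies and 4195, 4271 and 4219 CPM in whole cells. Pseudopodia enclosed the cell body range, and whole cells were lower than every other library. EEF2 gave 0.47 ± 0.14, adjusted p = 0.0149 for pseudopodia against whole cells, -0.012, adjusted p = 0.933 on log2(TPM + 1) and -0.023, adjusted p = 0.768 with the correction for GC content and length. Cell body against whole cell gave 0.31 ± 0.14, adjusted p = 0.113, which passed in 5 of 22 alternatives, among them without pseudopodia replicate 2 or 3. EIF5A, which carries hypusine and relieves stalled ribosomes, had 235, 215 and 280.2 CPM in pseudopodia, 231, 226 and 211 CPM in cell bodies and 116, 128 and 123 CPM in whole cells. Both fractions were far above whole cells and overlapped with each other, with 0.99 ± 0.13, adjusted p = 5.73e-05 for pseudopodia and 0.86 ± 0.13, adjusted p = 0.00048 for cell bodies against whole cells. Reads of EIF5A may also fall on its copy EIF5AL1, which moved the same way (0.91 ± 0.16 for pseudopodia against whole cells).

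EEF1B2 and EEF1D, which recharge eEF1A with GTP, gave 0.36 ± 0.12, adjusted p = 0.0384 and 0.51 ± 0.14, adjusted p = 0.0155 between pseudopodia and cell body by edgeR's quasi-likelihood test, and EEF1D shares 34.0% of its exonic bases with a gene on the opposite strand. EEF2K, the kinase that switches eEF2 off, had 28.9, 23.0 and 33.0 CPM in pseudopodia, 30.4, 39.8 and 37.6 CPM in cell bodies and 49.8, 45.8 and 50.3 CPM in whole cells. All fraction libraries were below all whole cell libraries. It fell by 0.78 ± 0.16 on the log2 scale in pseudopodia (adjusted p = 0.0014) and by 0.44 ± 0.16 in cell bodies (adjusted p = 0.0484) relative to whole cells. The cell body call was lost in 11 of 22 alternatives, including without pseudopodia replicate 1 or any 1 cell body or whole cell library. Pseudopodia against cell body gave -0.34 ± 0.16, adjusted p = 0.11, which passed in 7 of 22 alternatives, among them on log2(TPM + 1) (-0.59, adjusted p = 0.00733) and without pseudopodia replicate 3 (-0.47, adjusted p = 0.0165). EEF1AKMT4, a lysine methyltransferase of eEF1A, had 1.01, 1.05 and 0.907 CPM in pseudopodia, 0.994, 0.979 and 0.940 CPM in cell bodies and 0.272, 0.277 and 0.129 CPM in whole cells. Whole cells were lowest in every library, and the log2 fold changes of 2.10 ± 0.29 in pseudopodia and 2.07 ± 0.29 in cell bodies over whole cells rest on about 1 CPM in a gene that shares 46.8% of its exonic bases with others. Of the noncoding members EIF3J-DT had 6.54, 5.00 and 5.03 CPM in pseudopodia, 4.73, 4.36 and 4.50 CPM in cell bodies and 6.77, 7.98 and 6.34 CPM in whole cells. It was lower in cell bodies than in whole cells in every library (-0.63 ± 0.17, adjusted p = 0.0127), a call lost without cell body replicate 2 or 3 or whole cell replicate 2.

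The 13 members with a pyrimidine run at the start were also looked at as a list. EIF4B had the highest and EIF2A the lowest log2 fold change of these 13 in both pseudopodia comparisons. Between pseudopodia and cell body their median was 0.16, with 3 called higher and 1 called lower, against 0.02 for the 39 tested members without a run, of which 5 were called higher and 6 lower. Of all genes 18.6% were called higher and 19.9% lower, so that the 3 of 13 called higher are near the share of all genes. Between pseudopodia and whole cell the medians were 0.60 and 0.46, and between cell body and whole cell 0.28 and 0.43, in the same order of lists. These medians are descriptions of lists that overlap in range. Another list held 10 members known as TOP mRNAs, of which only 5 had a listed start, each with the run. These 5, EEF1A1, EEF1B2, EEF2, EIF3F and EIF4B, are also among the 13. Between pseudopodia and cell body 5 of the 10 were called higher, beside 18.6% of all genes. None was called lower and 5 were not called, with a median of 0.27. The calls of EEF1B2, EIF3F and EIF4B are counted in both lists, and that of EIF3A was lost in 5 of 22 alternatives.

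Genes around the members were also followed. Of 46 tested genes for poly(A) binding, release and recycling, eIF2 kinases and phosphatases, mTOR and MNK signalling and factor modification, 22 were called higher in pseudopodia than in cell bodies and 7 were called lower, 63% in all beside 38.5% of all genes, with a median log2 fold change of 0.40. The lower count was 11 with pseudopodia replicate 2 left out and 4 with cell body replicate 3 left out, and on log2(TPM + 1) the split was 15 higher and 12 lower. PPP1R15A (GADD34), which directs a phosphatase to eIF2 alpha, had 1180.1, 1042 and 1465 CPM in pseudopodia, 212, 198 and 183 CPM in cell bodies and 203, 203 and 203 CPM in whole cells. Pseudopodia stood far above all other libraries, with 2.63 ± 0.15, adjusted p = 3.62e-07 against cell bodies (edgeR's quasi-likelihood test). GIGYF1 and GIGYF2, partners of the repressive cap-binding protein EIF4E2, gave 2.16 ± 0.15, adjusted p = 1.25e-06 and 1.86 ± 0.16, adjusted p = 5.05e-06. PAIP2B, which restrains poly(A)-binding protein, gave 2.10 ± 0.30, adjusted p = 0.000218 at under 5 CPM, while its relative PAIP2 gave -0.67 ± 0.20, adjusted p = 0.0235. The RNA helicase DDX3X gave -0.79 ± 0.15, adjusted p = 0.00144 and the release factor GSPT2 -1.36 ± 0.19, adjusted p = 0.000229. DHPS, the first enzyme of hypusine synthesis, was under 2 CPM in all libraries and shares 41.8% of its exonic bases with others, so its value of -3.29 ± 0.40 is uncertain.

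Against whole cells 24 of the 46 were higher and 6 were lower in pseudopodia, and 13 were higher and 5 were lower in cell bodies. The shares called in either direction, 65.2% and 39.1%, were near the 61% and 38.6% of all genes. The split by direction was not: of all genes 27.9% were higher and 33.1% lower in pseudopodia, and 18.1% and 20.5% in cell bodies. The cell body count of lower genes was 8 with pseudopodia replicate 3 left out, and 3 with cell body replicate 2, whole cell replicate 1 or whole cell replicate 3 left out. On log2(TPM + 1) the splits were 17 higher and 13 lower in pseudopodia and 11 higher and 11 lower in cell bodies. In pseudopodia PPP1R15A, DOHH, the second enzyme of hypusine synthesis, ABCF1, an ATP-binding protein of initiation, and ETF1, the release factor that reads stop codons, led with 2.60 ± 0.15, 2.54 ± 0.21, 2.43 ± 0.12 and 2.20 ± 0.16. DHPS, the helicase DHX29, GSPT2 and the mTOR inhibitor DDIT4 were lowest, with -3.85 ± 0.40, -1.77 ± 0.46, -1.23 ± 0.19 and -1.04 ± 0.19. ETF1 had 423, 469 and 298 CPM in pseudopodia, 206, 211 and 215 CPM in cell bodies and 87.3, 85.8 and 85.3 CPM in whole cells, and its 3 groups did not overlap. In cell bodies ETF1, the ribosome rescue factor PELO, the diphthamide enzyme DPH2 and DOHH were highest over whole cells, with 1.29 ± 0.16, 1.29 ± 0.12, 1.15 ± 0.17 and 0.99 ± 0.20. DDIT4 (-1.75 ± 0.20), DHX29 (-1.50 ± 0.45), the double-stranded RNA-activated eIF2 kinase EIF2AK2 (-1.30 ± 0.31) and PAIP2B (-0.99 ± 0.30) were lowest. DDIT4 shares 41.2% of its exonic bases with its antisense gene.

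Replicates of the pseudopodia agreed least, and there the difference between replicates went with GC content. The median coefficient of variation of the 65 members was 18.7% in pseudopodia, 8.31% in cell bodies and 4.35% in whole cells. The highest in pseudopodia were 79.6% for EIF2A, 70.9% for EIF5B and 63.5% for EIF3M. The log2 CPM of pseudopodia replicate 2 minus replicate 3 ran from -0.96 for EIF4A1 to 2.39 for EIF3M, and across the 65 members it went with GC content (Pearson's r = -0.68, Spearman's rho = -0.74). The same difference gave r = -0.07 in cell bodies and 0.01 in whole cells. This pair had the strongest correlation in pseudopodia. For replicate 2 minus replicate 1 and replicate 3 minus replicate 1, r was -0.43 and 0.53 in pseudopodia. For the same pairs r was 0.14 and 0.19 in cell bodies and -0.12 and -0.11 in whole cells. These correlations describe 65 genes that share the same libraries, depths and base composition and are not independent replicates. Across the members the log2 fold change itself went with GC content at r = 0.19 between pseudopodia and cell body, 0.33 between pseudopodia and whole cell and 0.30 between cell body and whole cell. Spearman's rho was 0.34, 0.45 and 0.29 in the same order of comparisons. With a correction for GC content and length, 14 members were called higher and 8 were called lower between pseudopodia and cell body. Of these, 10 and 6 were also called without the correction. Against whole cells the correction gave 39 higher members in pseudopodia, of which 29 were among the 36 called without it. In cell bodies it gave 30 higher members, of which 25 were among the 30 called without it.

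**Figure D4:**
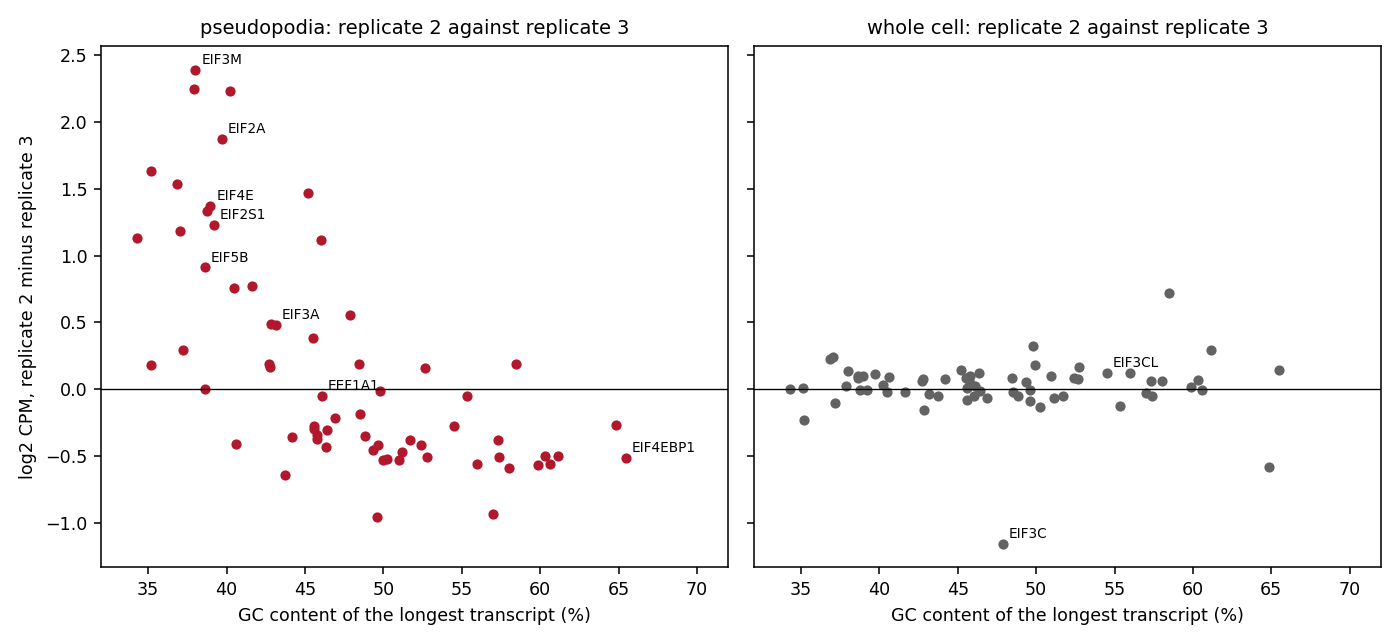
Log2 CPM of replicate 2 minus replicate 3 (vertical axis) against the GC content of each of the 65 tested members (horizontal axis), for pseudopodia on the left and whole cells on the right. Low-GC members such as EIF3M lie high in pseudopodia, where r is -0.68, and the points of whole cells stay near 0 apart from EIF3C and EEF1AKMT4.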

How the data were processed

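Reads per gene (counts) and TPM were measured by RNA sequencing of 9 libraries, 3 for each of the 3 groups, from a low-input kit per the labels' protocols. The authors deposited raw gene counts made with featureCounts, per the labels, and TPM per library, per the file headers. Genome build GRCh38 and the tool DESeq2 are named in the submitters' processing notes, and the aligner, annotation release and use of strand remain not given in the sources used here. Library totals were 55469030 to 83894938 counts. 1 blank line of the count table was left out.

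Counts were tested with edgeR 4.0.16 in R 4.3.3 (TMM factors, filterByExpr, quasi-likelihood test, 1 fit of all 9 libraries, Benjamini-Hochberg over 19426 genes), and a gene was called at an adjusted p under 0.05. CPM are TMM-scaled, and marker sums are in TPM. Alternatives used limma 3.58.1 (voom, and log2(TPM + 1) or log2(TPM + 0.1)), DESeq2 1.42.0, other factors and filters, a GC and length correction, a replicate block and leaving out each library. The procedure was tested on simulated data with the same spread in every group. In these libraries the fitted coefficient of variation between replicates was 5.09% in whole cells, 17.6% in cell bodies and 31.9% in pseudopodia. The simulation therefore cannot show how 1 fit of all groups behaves at such unequal spreads. With the 6 libraries compared alone, 8 members were called higher and 6 lower between pseudopodia and cell body. GC content, length and exon overlap came from GENCODE 29 and start sequences from RefSeq. A standard error derived from the test follows ± for log2 fold changes. It is the absolute log2 fold change divided by the square root of the quasi-likelihood F statistic.

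The members and gene lists were chosen with earlier results of these data known. Values in every library are given for the 8 highest and the 7 lowest (all that were called lower) among the called members between pseudopodia and cell body, the 4 highest and 4 lowest in each other comparison, and EIF4E, EIF4G1, EIF4A1, EIF4A2, EIF4EBP1, EIF4EBP2, EIF2S1, EIF3A, EEF1A1, EEF2, EIF5A and EEF2K. Of the surrounding genes, the 4 highest and 4 lowest called in each comparison are named.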

Additional observations from a re-analysis of the deposited data

How the results depend on the processing

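All alternatives chosen at the outset were run. Called members between pseudopodia and cell body numbered 7 higher with either TPM pseudocount, and lower ones numbered 14 with limma-voom and 18 with either TPM pseudocount, with 9 to 14 higher and 4 to 11 lower when 1 library was left out. Against whole cells pseudopodia had 17 higher and 14 lower on TPM (33 to 39 and 4 to 9 with 1 library left out). Cell bodies had 2 lower members with no filter, 9 with voom and on TPM, 7 with the GC and length correction, with or without the replicate block, and 8 with the 6 libraries compared, and 20 to 41 higher and 1 to 7 lower with 1 library left out. Surrounding genes called lower between pseudopodia and cell body numbered 12 with voom and on TPM (4 to 11 with 1 library left out), and between pseudopodia and whole cell 12 with voom and 13 on TPM. Between cell body and whole cell 21 were higher with voom and 20 with the 6 libraries, and 3 were lower with no filter, 12 with voom, 11 and 9 on log2(TPM + 1) and log2(TPM + 0.1), 12 with the GC and length correction, 11 with the block added, and 9 with the 6 libraries (3 to 8 with 1 library left out). The cause of these moves was not tested.

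Directions turned between pseudopodia and whole cell on log2(TPM + 1) and log2(TPM + 0.1) for EIF4E3 (-0.0093 and -0.022), EIF1B (-0.0041 and -0.0043), EIF4A3 (-0.086 and -0.089) and EEF2 (-0.012 in both), with limma-voom for EIF4H (0.13), and with the GC and length correction, without and with the replicate block, for EEF2 (-0.023 in both), EIF2S1 (0.42 and 0.41) and EIF4A2 (0.28 and 0.25). EIF4A2 also turned between pseudopodia and cell body (0.048 and 0.022). The summed level of the members was 0.967 times that of cell bodies in pseudopodia in TPM and 1.18 times in TMM-scaled CPM per kilobase, 1.12 and 1.55 times that of whole cells in pseudopodia, and 1.16 and 1.31 times that of whole cells in cell bodies.

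The replicate numbers were not treated as pairs. Correlations of deviations between libraries of the same number ran from -0.08 to 0.09, and between libraries of different numbers from -0.18 to 0.14. With 3 libraries in each group these values cannot settle whether a number marks a shared culture, and the labels do not say what it marks. With the replicate block 10 members were higher and 6 were lower between pseudopodia and cell body, 34 and 6 between pseudopodia and whole cell, and 26 and 4 between cell body and whole cell.

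Depth limits EIF4A1, EIF4EBP3, EIF4E3 and EEF1AKMT4, which are counted at few CPM. Values relative to each library's total say nothing of absolute amounts.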
